A study of Homo sapiens with 4 samples.

Results

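CD36, ANGPTL4 and 8 further genes that take up, store, release or burn fatty acids were followed in RNA-seq of SKOV3 cells, an established human ovarian cancer line. The 10 genes are CD36, ANGPTL4, HILPDA, PNPLA2, PLIN2, DGAT1, DGAT2, CPT1A, PPARG and PPARD, and they were picked by symbol from the 19475 gene symbols of the deposited table, with earlier results of the same comparison known. For each symbol the transcript with the highest mean value was kept. The table holds 4 libraries. In 2 of them (replicates 1 and 2) the cells came from TCP, the standard tissue culture plate, at day 0. In the other 2 (replicates 1 and 2) they came from plates coated with a polymer film named polymer X, on which the cells form tumor spheroids, at day 8. The labels name no edit and no drug for any of the 4. The labels give 1 serum-replacement medium for all 4 libraries, TCP included, whereas the study's methods keep the line in serum before the spheroid culture, so the medium of the TCP cells is not certain and substrate, days in culture and possibly medium cannot be told apart. Nothing in the labels says whether the 2 libraries of a group came from separate cultures, so the adjusted p-values measure only the spread between these libraries, which may be technical.

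Fatty acids reach a cell either through membrane proteins such as CD36 or from the triglycerides of lipoproteins, which lipoprotein lipase cuts and which ANGPTL4 protects by inactivating that enzyme. Inside the cell they are built into triglycerides by enzymes that end with the DGATs, kept in droplets coated with perilipins such as PLIN2, and released again by the lipase PNPLA2, also called ATGL, which HILPDA inhibits. CPT1A carries them into mitochondria for oxidation, and the nuclear receptors PPARG and PPARD, which bind fatty acids as ligands, are known to drive many of these genes, ANGPTL4, PLIN2 and CPT1A among them.

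Values are FPKM, the tags on a transcript's exons scaled to transcript length and to the size of the library, so levels of different genes can be compared per length. The 4 libraries hold between 38405000 and 44915000 tags. Of 12 epithelial and ovarian carcinoma markers 8 were tested. Of these, 4 (ERBB2, PAX8, MUC1 and EPCAM) were called higher and 0 lower, where 10.7% of all tested genes were called higher and 9.45% lower. By the adjusted p alone in limma, 5 of the 8 were higher and 3 (KRT7, KRT8 and KRT18) lower. Of all tested genes 37.4% passed as higher and 43.6% as lower. ERBB2 overlaps MIEN1 and KRT18 overlaps KRT8, each on the opposite strand. MUC1 was at 1.71 and 1.79 FPKM on TCP and at 15.3 and 16.7 on polymer X. EPCAM, at 0.168 and 0.104 against 1.39 and 1.325, reached the level needed for a test only on polymer X. ERBB2 was at 198 and 206 FPKM on TCP and at 913 and 860 on polymer X and PAX8 at 48.8 and 50.5 against 102 and 108, while KRT8 was at 262 and 269 against 146 and 143 and KRT18 at 123 and 121 against 89.3 and 89.6. MUC16, WT1 and CDH1, from the same list, were near 0. CDH1 nevertheless went from 6 and 6 tags to 69 and 66, and WT1 from 23 and 56 tags to 14 and 1. Of 7 adipocyte markers 0 reached the level needed for a test, and ADIPOQ, LEP, FABP4 and LPL lay at or under 3 tags in every library.

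On polymer X, 3 of the 10 genes stood far above TCP and most of the others differed little. ANGPTL4 was 64.7-fold higher, HILPDA was 7.84-fold higher, and CD36 went from 1 tag in the TCP libraries together to 511 tags in the polymer X libraries. PNPLA2, CPT1A, PPARD, DGAT1 and DGAT2 were between 1.16-fold and 1.68-fold higher, and PPARG was at 0.652 of its TCP level. PLIN2 was listed at 0 in both TCP libraries and at very low values on polymer X.

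**Figure D1:**
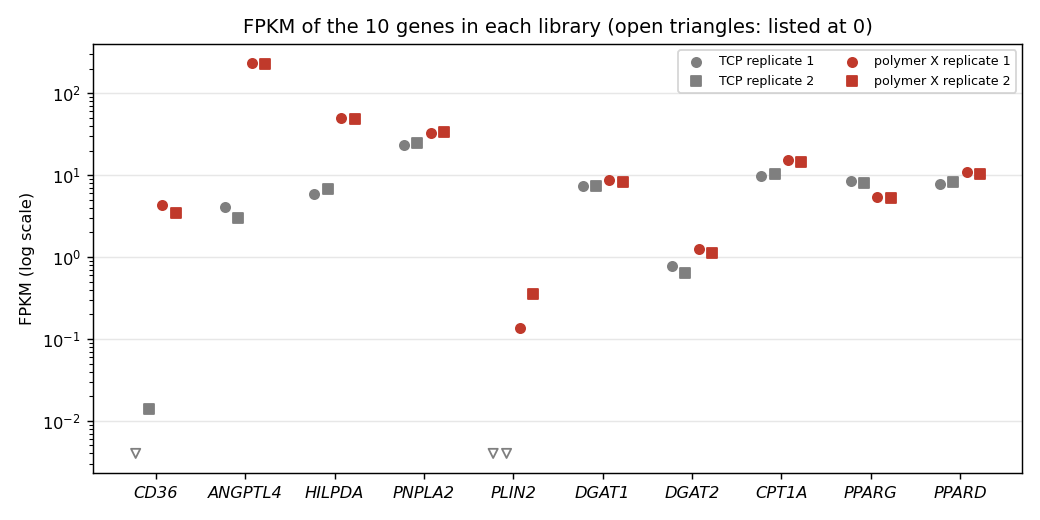
FPKM of the 10 genes in each of the 4 libraries, on a log scale, with gray symbols for TCP and red symbols for polymer X, circles for replicate 1, squares for replicate 2 and open triangles for values listed at 0. ANGPTL4 moves from the seventh place on TCP to the first on polymer X, whereas PNPLA2, DGAT1, CPT1A, PPARG and PPARD keep close to their TCP levels.

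A gene was tested if its FPKM was at least 1 in at least 2 libraries, and was called at an adjusted p under 0.05 in limma with a log2 fold change of at least 1 on the scale of log2(FPKM + 1). Of the 10 genes, 9 were tested, and 3 of them (ANGPTL4, HILPDA and CD36) were called higher, where 10.7% of all 11964 tested genes were called higher. None of the 9 was called lower by limma (0 genes, and 1 gene, PPARG, at an unadjusted p under 0.05), where 9.45% of all tested genes were called lower. By the adjusted p alone, with no minimum size, 8 of the 9 passed as higher and 1 as lower, where 37.4% of all tested genes passed as higher and 43.6% as lower. The FPKM of the polymer X libraries did not overlap that of the TCP libraries for 10 of the 10 genes, but such a gap was also present in 90.4% of all tested genes, 41.9% upward and 48.4% downward. Since the genes were chosen with this comparison known, these counts and the values below are a description and no p-value is given for them. CD36 and DGAT2 passed the level filter only through the polymer X libraries.

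The stretches before the transcription start of ANGPTL4, CD36 and PLIN2 are shown because these 3 genes had the lowest TCP levels relative to polymer X among those with a RefSeq promoter window. The sequences are the 250 bases before the start in RefSeq on GRCh38.p14, a later build than the hg19 of the expression table, read 5′ to 3′ on the strand of the gene. Windows were matched by symbol for 7 of the 10 genes, 17 windows in all, and HILPDA, DGAT1 and DGAT2 had none. Capitals mark ACGTG or GCGTG, the cores of hypoxia response elements, on either strand. For CD36, which has 6 windows, the one farthest upstream is shown. The CD36 transcript kept here starts at 80275969 on hg19, whereas CD36 transcripts start as far upstream as 80231504. The window shown was therefore not matched to the kept transcript.
ANGPTL4, chr19:8363905-8364154, plus strand: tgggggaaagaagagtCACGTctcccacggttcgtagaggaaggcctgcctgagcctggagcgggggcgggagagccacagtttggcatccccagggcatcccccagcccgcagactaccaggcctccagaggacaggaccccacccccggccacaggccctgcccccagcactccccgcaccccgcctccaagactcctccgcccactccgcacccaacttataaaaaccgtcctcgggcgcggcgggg
CD36, chr7:80601957-80602206, plus strand: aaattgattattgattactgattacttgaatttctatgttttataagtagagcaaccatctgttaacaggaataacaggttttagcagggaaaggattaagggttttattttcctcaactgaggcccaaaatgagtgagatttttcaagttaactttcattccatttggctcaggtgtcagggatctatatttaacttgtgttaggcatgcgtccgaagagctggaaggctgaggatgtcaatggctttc
PLIN2, chr9:19127493-19127742, minus strand: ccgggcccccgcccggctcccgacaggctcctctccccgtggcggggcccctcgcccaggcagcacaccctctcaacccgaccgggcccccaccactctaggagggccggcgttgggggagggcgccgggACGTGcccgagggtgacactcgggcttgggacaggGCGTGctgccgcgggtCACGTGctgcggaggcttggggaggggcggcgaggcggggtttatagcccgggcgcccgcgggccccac
The ANGPTL4 window holds 1 ACGTG, read from the opposite strand, whose first base lies 234 bases before the start. In the PLIN2 window, ACGTG was found at 120, 69 and 68 bases before the start and GCGTG at 85 bases before it. The matches at 69 and 68 bases overlap, since they are the strands of one CACGTG. The CD36 window shown holds neither core, and 1 of the other CD36 windows has a GCGTG at 17 bases before its start. One core or the other was present in 6 of the 17 windows, which belong to CD36, ANGPTL4, PLIN2, PPARG and PPARD. CD36 and PPARG have 6 windows each, and the shares that follow are per window, not per gene. Of all 35116 RefSeq windows of this length 43.2% held at least 1 of them, 18.5% ACGTG and 32.2% GCGTG. The strict consensus of the direct repeat bound by PPAR with its partner RXR (DR1) was found on either strand in 0 of the 17 windows and in 0.0171% of all windows. The palindrome TTCNNNGAA, the consensus for STAT proteins, was found in 1 of the 17 windows, a CD36 window with the match at 208 bases before its start, and in 6.57% of all windows. A match of letters is a description and does not show that a factor binds there.

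ANGPTL4 (NM_001039667, chr19:8429011-8439259 on the plus strand of hg19) encodes the secreted protein that inactivates lipoprotein lipase. Its FPKM was 4.06 and 3.01 in the TCP libraries and 231 and 227 in the polymer X libraries. Both polymer X libraries therefore lay far above both TCP libraries. The polymer X replicates were close, at 229 ± 3.15, whereas the TCP replicates differed more relative to their level, at 3.53 ± 0.743 (SD, n = 2 each). Set against each other library by library, the ratio ran from 55.8 to 76.8. The log2 fold change was 5.67 with a standard error of 0.10, and only 3 of the 11964 tested genes had a larger one. In rank among the tested genes, the ANGPTL4 level went from percentile 26.1 on TCP to percentile 99.0 on polymer X. The second transcript of ANGPTL4 gave 5.68 on the same scale. These transcripts share most of their sequence, so they are not separate evidence.

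HILPDA (NM_001098786, chr7:128095884-128098472, plus strand), a small protein of lipid droplets that inhibits the lipase PNPLA2, was at 5.82 and 6.78 FPKM on TCP and at 50.5 and 48.2 FPKM on polymer X. The groups were well apart, with every pair of libraries differing by 7.11-fold to 8.69-fold. The log2 fold change was 2.79 with a standard error of 0.07, and 95 tested genes had a larger one.

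CD36 (NM_001289908, chr7:80275969-80303734, plus strand) is the membrane receptor that takes up long-chain fatty acids and oxidized lipoproteins. Its values were 0 and 0.014 FPKM on TCP, that is 0 and 1 tags, and 4.27 and 3.41 FPKM on polymer X, that is 282 and 229 tags. CD36 was therefore at the limit of detection on TCP and at percentile 25 of the tested genes on polymer X, below the middle even where it was highest. Corrected for library size, the polymer X libraries had 527 times as many CD36 tags as the TCP libraries, with an exact 95% interval from 94.3 to 20900 that is wide because it rests on 1 TCP tag and covers counting error only. On the scale of log2(FPKM + 1) the difference was 2.26 with a standard error of 0.10, and with a pseudocount of 0.1 in place of 1 it was 5.20, so the size of the fold change depended on that constant. All 8 CD36 transcripts of the table showed it, from 1.82 to 2.26 on the first scale, but they share much of their sequence and are not separate evidence. The longest transcript, NM_001001548 of 4711 bases, had the lowest FPKM of the 8 on polymer X (2.89 and 2.23).

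PLIN2 (NM_001122, chr9:19115759-19127604, minus strand) encodes the perilipin that coats droplets in most cell types other than adipocytes. It was listed at 0 in both TCP libraries and at 0.137 and 0.356 FPKM on polymer X, from 11 and 29 tags. The polymer X replicates lay well apart, and the level was too low for a test. Against a floor of 3 tags over the TCP libraries together, set in place of the count of 0, the polymer X level was 13.8-fold higher. That rough bound allows for counting error on TCP only and takes the polymer X tags as exact. With polymer X replicate 1 alone, which has 11 tags, the bound, added after the data were seen, was 7.63-fold, and with replicate 2 alone 19.8-fold. A value listed at 0 in this table need not be an absent transcript. RPS18, a ribosomal protein gene that dividing cells transcribe strongly, was listed at 2.00, 1.47, 0.532 and 0.262 FPKM and has 6 copies in the table, whereas PLIN2 has 1 copy. The genes around PLIN2 were read well in all 4 libraries. RRAGA had 26.5 and 26.6 FPKM on TCP and 55.1 and 54.5 on polymer X, HAUS6 had 5.80 and 5.70 against 9.08 and 8.89, and DENND4C had 3.83 and 3.69 against 9.24 and 9.05. RPS18 and these neighbors were chosen after their values were seen, and why PLIN2 was so low was not tested.

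Among the other perilipins, also looked up after their values were seen, PLIN3, which coats small nascent droplets, held nearly all of the family's signal. Its FPKM was 76.3 and 77.0 on TCP and 51.9 and 52.3 on polymer X, and the log2 fold change of -0.55 stayed under the size needed for a call. PLIN1, the adipocyte perilipin, was at 0.244 and 0.178 FPKM against 0.737 and 0.836. PLIN4 was at 0.254 and 0.288 FPKM against 0.201 and 0.267, with overlapping groups. PLIN5, found mainly in oxidative tissues, was listed at 0 in both TCP libraries and at 0.175 and 0.192 FPKM on polymer X. On polymer X the PLIN3 value was 379 and 147 times that of PLIN2 in replicates 1 and 2.

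**Figure D2:**
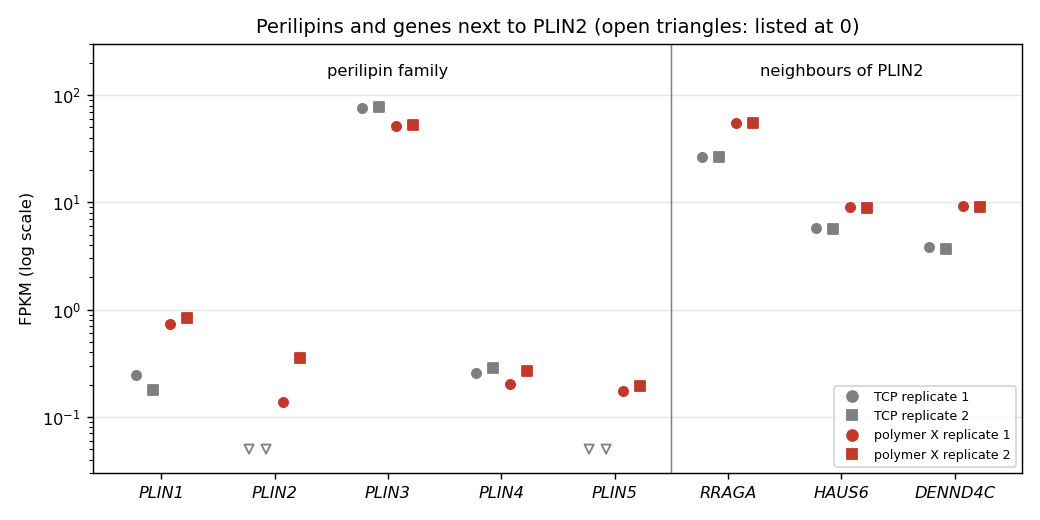
FPKM on a log scale of the 5 perilipins (left) and of 3 genes beside PLIN2 on chromosome 9 (right) in each of the 4 libraries, with open triangles for values listed at 0. PLIN3 is the one perilipin above 1 FPKM, and the genes next to PLIN2 are at 3.69 FPKM or more in every library.

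PNPLA2 (NM_020376, chr11:818901-825571, plus strand), the lipase that takes the first fatty acid from stored triglyceride, was at 23.7 and 24.5 FPKM on TCP and at 33.0 and 34.1 FPKM on polymer X. The groups did not overlap, and the log2 fold change of 0.46 with a standard error of 0.06 did not reach the size needed for a call. PNPLA2 was the most abundant of the 10 genes on TCP, with 24.1 ± 0.585 FPKM, and the third on polymer X, with 33.6 ± 0.733 FPKM (SD, n = 2 each).

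The DGAT enzymes make triglyceride from diacylglycerol. DGAT1 (NM_012079, chr8:145538246-145550582, minus strand) was at 7.41 and 7.28 FPKM on TCP and at 8.78 and 8.23 FPKM on polymer X, and its log2 fold change was 0.19 with a standard error of 0.07. That was the smallest difference among the 9 tested genes. DGAT1 overlaps HSF1 on the opposite strand and the tags were counted on both strands, so tags of HSF1 there cannot be told from those of DGAT1. DGAT2 (NM_001253891, chr11:75479778-75512581, plus strand) was at 0.776 and 0.634 FPKM on TCP and at 1.25 and 1.11 FPKM on polymer X, from 69, 66, 116 and 105 tags. Its log2 fold change was 0.36 with a standard error of 0.09 and turned to -0.18 with quantile normalization, so its direction depended on the scaling. DGAT1 was the more abundant of the pair in every library, at 9.55 and 11.5 times the DGAT2 value on TCP and 7.02 and 7.39 times on polymer X.

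CPT1A (NM_001876, chr11:68522351-68609399, minus strand) attaches carnitine to long-chain fatty acids so that they can enter mitochondria. It was at 9.74 and 10.4 FPKM on TCP and at 15.5 and 14.6 FPKM on polymer X, with no overlap between groups. The log2 fold change was 0.53 with a standard error of 0.07. A shorter transcript of 2616 bases, NM_001031847, gave 0.27.

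PPARG (NM_005037, chr3:12329349-12475855, plus strand), the receptor known as the main driver of fat cell formation, was the one member with lower values on polymer X. Its FPKM was 8.39 and 8.02 on TCP and 5.44 and 5.26 on polymer X. The log2 fold change was -0.54 with a standard error of 0.07, and the 10 PPARG transcripts lay between -0.54 and -0.42. PPARD (NM_006238, chr6:35310335-35395968, plus strand), the more widely expressed receptor, was at 7.80 and 8.31 FPKM on TCP and at 10.9 and 10.4 FPKM on polymer X. That was a log2 fold change of 0.36 with a standard error of 0.07, between 0.16 and 0.40 over its 5 transcripts. For both receptors the transcripts share much of their sequence and are not separate evidence.

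**Figure D3:**
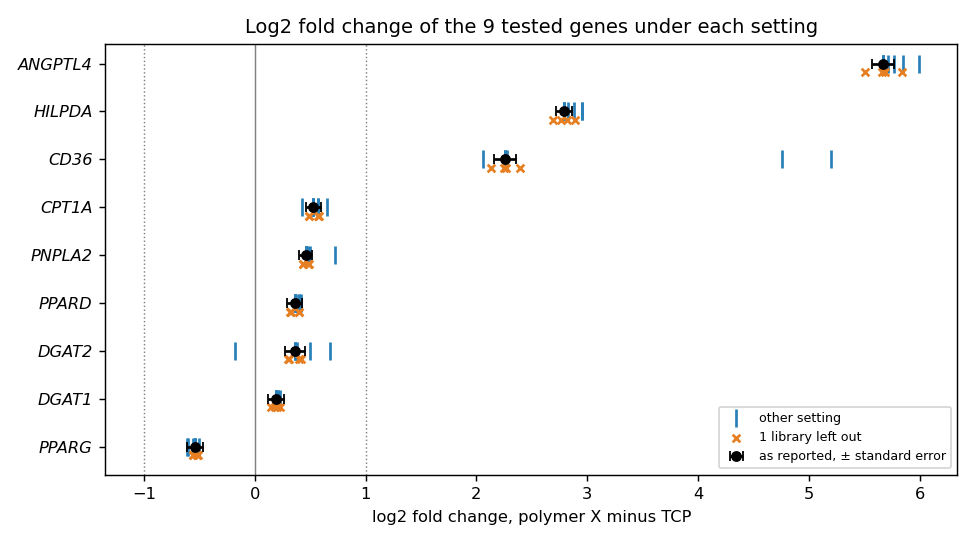
Log2 fold change (polymer X minus TCP) of the 9 tested genes, with black points for the reported value and bars for its standard error, blue ticks for the other settings and orange crosses for fits with 1 library left out; dotted lines mark the size of 1 needed for a call. ANGPTL4, HILPDA and CD36 stay beyond 1 throughout, CD36 runs from 2.06 to 5.20, and DGAT2 is the gene that crosses 0.

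The order of the 10 levels was not the same on both substrates. On TCP, per length, PNPLA2 came first, then CPT1A, PPARG and PPARD, DGAT1, HILPDA, ANGPTL4, DGAT2, and last CD36 and PLIN2. There, PPARG (8.02 to 8.39 FPKM) and PPARD (7.80 to 8.31 FPKM) overlapped, as did CD36 and PLIN2, while no other neighbors in the order overlapped. On polymer X the order was ANGPTL4, HILPDA, PNPLA2, CPT1A, PPARD, DGAT1, PPARG, CD36, DGAT2 and PLIN2, with no overlap between neighbors. ANGPTL4 and HILPDA, seventh and sixth on TCP, thus held the first places on polymer X.

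Ratios between functionally paired genes within a library do not depend on the depth of that library, and they are given here as a description with the pairs chosen after the values were seen. HILPDA was at 0.246 and 0.277 of the PNPLA2 value on TCP and at 1.53 and 1.42 times that value on polymer X, so the inhibitor transcript passed that of its lipase. G0S2, another protein inhibitor of PNPLA2, was at 2.93 and 2.47 times PNPLA2 on TCP and at 6.17 and 5.01 times on polymer X. ABHD5, the coactivator of PNPLA2, was at 0.329 and 0.323 of PNPLA2 on TCP and at 0.0834 and 0.0743 on polymer X. The ratio of PPARD to PPARG was 0.930 and 1.04 on TCP, near parity, and 2.01 and 1.97 on polymer X. PPARA, the receptor that governs fatty acid oxidation in liver, was at 0.199 and 0.201 of PPARG on TCP and at 0.575 and 0.656 on polymer X. For the carnitine palmitoyltransferases, CPT1B was at 0.668 and 0.740 of CPT1A on TCP and at 1.31 and 1.42 times CPT1A on polymer X.

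**Figure D4:**
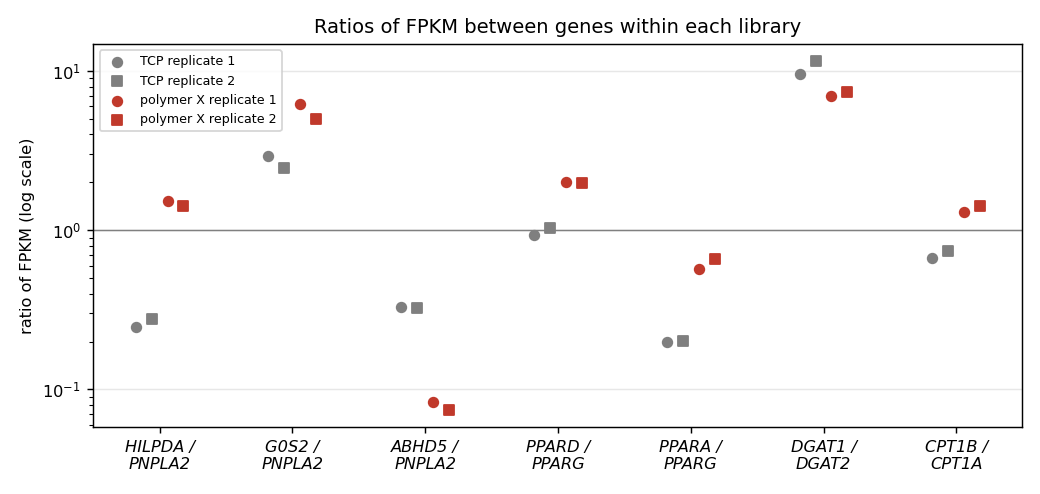
Ratio of FPKM between 2 genes within each library, on a log scale, with gray symbols for TCP, red symbols for polymer X and a line at a ratio of 1. HILPDA and CPT1B pass the level of PNPLA2 and CPT1A on polymer X, PPARD over PPARG goes from 0.930 and 1.04 to 2.01 and 1.97, and ABHD5 falls from 0.329 and 0.323 to 0.0834 and 0.0743 of PNPLA2.

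The genes nearest to CD36 and ANGPTL4 over the 4 libraries were found by Euclidean distance between the 4 values of log2(FPKM + 1). For CD36 they were SLC2A3 at a distance of 0.115, LIPG at 0.151 and TNNI3 at 0.153. SLC2A3, the glucose transporter GLUT3, was listed at 0 in both TCP libraries and at 4.58 and 3.66 FPKM on polymer X. LIPG, the endothelial lipase, was at 0.013 and 0.021 FPKM on TCP and at 3.81 and 3.62 FPKM on polymer X. TNNI3, the cardiac troponin I, was at 0.032 and 0.082 FPKM against 3.88 and 3.46. Like CD36, each of the 3 was at or near 0 on TCP and at a few FPKM on polymer X. Each passed the level filter only through polymer X and had a higher replicate 1 than replicate 2 there. They were picked for values close to those of CD36, so this likeness follows from the choice and is no separate result. For ANGPTL4 the nearest genes were CP at 0.668, CA9 at 0.747 and IFI27 at 0.917. CP, which encodes the copper protein ceruloplasmin and overlaps HPS3 on the opposite strand, was at 3.66 and 3.45 FPKM on TCP and at 167 and 167 FPKM on polymer X. CA9, a carbonic anhydrase of the cell surface, was at 3.85 and 3.32 FPKM against 152 and 169. IFI27, an interferon-inducible gene, was at 2.71 and 2.05 FPKM against 170 and 156.

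The 10 genes were then set among 131 other lipid genes in 8 lists by role. Of these, 94 were tested, 11 (11.7%) were called higher and 6 (6.38%) were called lower, close to the 10.7% and 9.45% of all tested genes. Their median log2 fold change was 0.07, where that of all tested genes was -0.06. By the adjusted p alone, with no minimum size, 43 of the 94 passed as higher and 30 as lower. Of all tested genes 37.4% passed as higher and 43.6% as lower, so the balance of directions there was the reverse. Whether the wider lipid genes differ from the rest was not tested. The named genes below are those with the largest changes in each list. Adjusted p-values are those of limma over all tested genes.

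**Figure D5:**
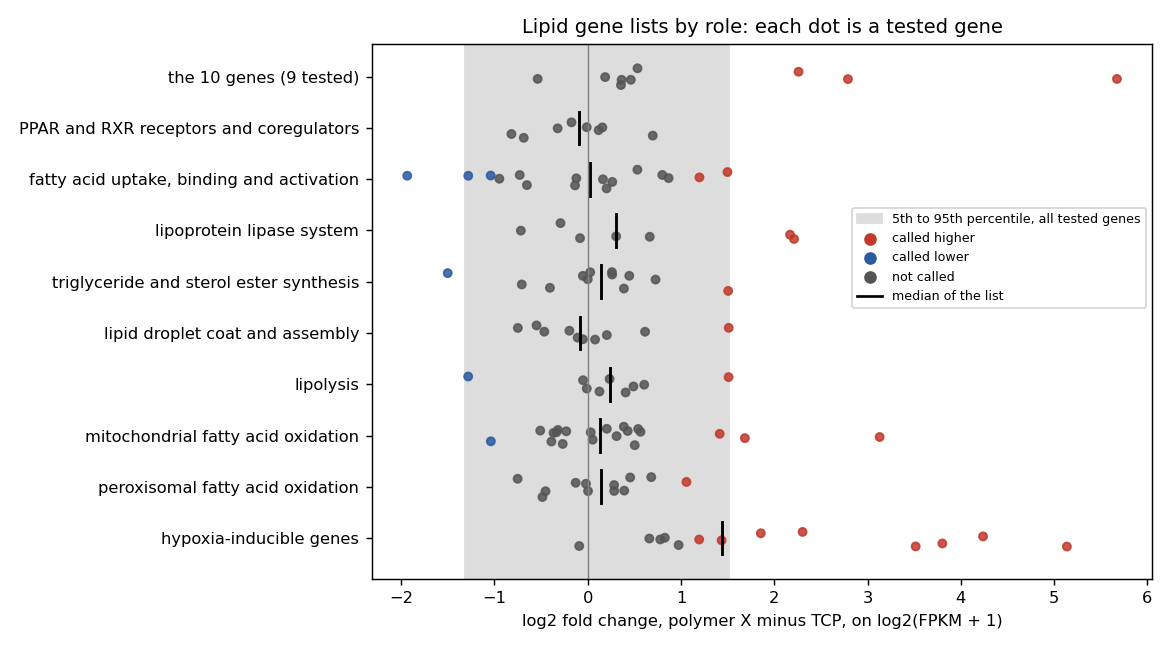
Log2 fold change (polymer X minus TCP) of each tested gene of the 10 genes, of 8 lists of other lipid genes and of the hypoxia-inducible genes, with red for genes called higher, blue for genes called lower, black bars for list medians and a gray band for the range from the 5th to the 95th percentile of all tested genes (-1.31 to 1.52). ANGPTL4, HILPDA and CD36 lie to the right of the band, as do PDK4, ACADVL, LIPG and PCSK6 among the other lipid genes, CAV1 and GPAM lie to its left, and the list medians of the lipid genes stay between -0.09 and 0.31.

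Of 24 genes for fatty acid uptake, binding and activation, the process that CD36 serves, 16 were tested, 2 were called higher and 3 lower, with a median of 0.02. SLC27A1, the fatty acid transporter FATP1, was higher, with 2.90 and 2.99 FPKM on TCP and 10.1 and 10.2 FPKM on polymer X (log2 fold change 1.5, adjusted p = 5.3e-08). ACSL5, an acyl-CoA synthetase, rose from 0.188 and 0.201 to 1.75 and 1.73 FPKM (1.20, adjusted p = 8.8e-07), and it passed the level filter only through polymer X. CAV1, the caveolin that shapes membrane pits and is reported to bring CD36 to the surface, fell from 280 and 278 to 71.9 and 72.8 FPKM (-1.93, adjusted p = 4.5e-09). GOT2, a mitochondrial aminotransferase also described as a fatty acid binding protein of the plasma membrane, fell from 52.4 and 53.8 to 22.4 and 20.2 FPKM (-1.28, adjusted p = 1.1e-07). ACSL3, the acyl-CoA synthetase of nascent lipid droplets, fell from 25.4 and 26.7 to 12.6 and 11.7 FPKM (-1.04, adjusted p = 4e-07), and without polymer X replicate 2 its change was -0.99 and no longer large enough for a call. CD36 thus moved the other way from CAV1, and the list held changes in both directions.

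The lipoprotein lipase system, the target of ANGPTL4, had 14 listed genes, of which 7 were tested, 2 were called higher and 0 lower. By the adjusted p alone in limma, 4 passed as higher and 2 as lower. LPL, the lipase that ANGPTL4 inactivates, was looked up after its values were seen and was listed at 0 in all 4 libraries. LIPG, a lipase of the same family that acts mainly on phospholipids, went from 2 and 4 tags to 633 and 612 tags. The ratio corrected for library size was 214, with an exact 95% interval from 98.1 to 585 that covers counting error only. Its log2 fold change was 2.21 (adjusted p = 1.6e-08), though LIPG passed the level filter only through polymer X. PCSK6, a proprotein convertase, rose from 1.32 and 1.51 to 10.1 and 9.63 FPKM (2.17, adjusted p = 1.2e-08). The ANGPTL4 value was 60.7 and 62.6 times the LIPG value on polymer X.

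Among 17 listed genes of triglyceride and sterol ester synthesis other than the DGATs, 12 were tested, 1 was called higher and 1 lower, with a median of 0.14. LPIN3, a phosphatidate phosphatase that makes the diacylglycerol used by the DGATs, rose from 3.91 and 4.75 to 12.7 and 15.7 FPKM (1.51, adjusted p = 1.1e-06), and it overlaps EMILIN3 on the opposite strand. GPAM, the mitochondrial acyltransferase of the first step, fell from 5.12 and 5.39 to 1.25 and 1.17 FPKM (-1.5, adjusted p = 1.2e-07). The log2 fold changes of DGAT1 and DGAT2, 0.19 and 0.36, lay between those of LPIN3 and GPAM.

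Of 17 genes of the lipid droplet coat and of droplet assembly other than PLIN2, 10 were tested, 1 was called higher and 0 lower. By the adjusted p alone in limma, 3 passed as higher and 4 as lower. TMEM159, which works with seipin where droplets form, rose from 2.15 and 1.5 to 6.92 and 7.09 FPKM (1.51, adjusted p = 1e-06), and it overlaps DNAH3 on the opposite strand.

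Of 11 further lipolysis genes 9 were tested, and 1 was called higher and 1 lower. G0S2 rose from 69.5 and 60.5 to 204 and 171 FPKM (1.51, adjusted p = 4.5e-07). ABHD5, which overlaps ANO10 on the opposite strand, fell from 7.79 and 7.91 to 2.76 and 2.53 FPKM (-1.28, adjusted p = 2.2e-07). With HILPDA, whose log2 fold change was 2.79, both listed inhibitors of PNPLA2 were thus higher on polymer X and its coactivator was lower, while PNPLA2 itself was 1.39-fold higher.

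The mitochondrial oxidation list around CPT1A had 23 genes, of which 20 were tested, 3 were called higher and 1 lower, with a median of 0.13. PDK4, the kinase that shuts pyruvate dehydrogenase and spares glucose, rose from 0.290 and 0.302 to 10.5 and 10.2 FPKM (3.13, adjusted p = 1.9e-09), the largest change in the 8 lists, and passed the level filter only through polymer X. ACADVL, the very long-chain acyl-CoA dehydrogenase, rose from 84.7 and 83.6 to 264 and 282 FPKM (1.69, adjusted p = 1.3e-08), and it overlaps DLG4 on the opposite strand. CPT1B, the muscle form of the enzyme, rose from 6.51 and 7.72 to 20.4 and 20.8 FPKM (1.41, adjusted p = 2.1e-07). CHKB, the gene directly upstream of CPT1B on the same strand, looked up after its values were seen, was at 9.86 and 10.9 FPKM on TCP and at 27.6 and 29.9 on polymer X, and tags from a transcript that runs through both genes could not be set apart. ETFA, which passes electrons from the dehydrogenases to the respiratory chain, fell from 79.6 and 74.2 to 38.8 and 35.1 FPKM (-1.04, adjusted p = 5.4e-07), and its change was -0.99 without TCP replicate 1 and -0.97 without polymer X replicate 2, under the size for a call. In the peroxisomal oxidation list, 12 of 13 genes were tested. By the adjusted p alone in limma, 6 passed as higher and 3 as lower, while 0 were called lower and 1 gene was called higher. That gene was ACOX2, the oxidase of branched-chain fatty acids, with 0.159 and 0.165 FPKM on TCP and 1.37 and 1.47 FPKM on polymer X (1.06, adjusted p = 2.3e-06), and it too passed the level filter only through polymer X.

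Of 12 other PPAR and RXR receptors and coregulators, 8 were tested and 0 were called in either direction by limma, with a median of -0.09 and a range from -0.82 to 0.70. In limma, 2 were higher and 3 lower by the adjusted p alone, and 2 and 4 at an unadjusted p under 0.05. PPARG and PPARD, at -0.54 and 0.36, lay within that range. RXRB was at or under 3 tags in every library but has 6 copies in the table, so its low value need not be a low transcript.

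ANGPTL4 and HILPDA are known to be induced by low oxygen, so a list of other such genes was read beside them. Of the 13 listed, 13 were tested, 8 were called higher, where 10.7% of all tested genes were, and 0 were called lower (0 at an unadjusted p under 0.05 in limma), with a median log2 fold change of 1.44. The other 5, PDK1, BNIP3, BNIP3L, KDM3A and LDHA, were not called, at 0.78, 0.66, 0.97, 0.83 and -0.09. By the adjusted p alone in limma, 12 of the 13, all but LDHA, passed as higher and 0 as lower. Of all tested genes 37.4% passed as higher and 43.6% as lower. The FPKM of all 13 together was 1922 and 1918 on TCP and 4237 and 4485 on polymer X. The part of these 13 genes in the values of the 10 genes was not tested. Markers of cell types that also express CD36 were checked as well. The 6 endothelial markers summed to 0.569 and 0.593 FPKM on TCP and 1.29 and 1.24 FPKM on polymer X, and 0 were tested. One of them, PECAM1, singled out after its values were seen, went from 0 and 0 tags to 102 and 83 tags (0.573 and 0.458 FPKM). PECAM1 thus made up most of the rise in the endothelial sum, and the other endothelial markers were read only within that sum. The 7 adipocyte markers summed to 0.294 and 0.201 FPKM on TCP and 0.955 and 0.957 FPKM on polymer X. The 7 macrophage markers summed to 20.9 and 21.2 FPKM against 55.0 and 57.5, nearly all from CD68 and MSR1, which were the 2 tested and were called higher, while CD14 was at most 0.178 FPKM. PTPRC, the pan-leukocyte marker, went from 1 and 0 tags on TCP to 92 and 106 tags on polymer X (0.468 and 0.530 FPKM). The part of these markers in the CD36 values was not tested. In bulk libraries, more cells that carry a transcript and more transcript per cell cannot be told apart.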

How the data were processed

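RNA-seq of 2 TCP and 2 polymer X libraries of SKOV3 cells was used. The authors deposited FPKM per RefSeq transcript on hg19, made with HOMER from tags on exons of both strands, and the submitters' processing notes also name STAR 2.4.0 and DESeq. The labels describe a directional kit, but strand was not used in counting. Other libraries named in the header were not used here. Values times length fell on whole tags (100% of low values within 0.1), which gave 38405000 and 44915000 tags for TCP and 40030000 and 40685000 for polymer X. The share of even tag numbers was 50.6% to 56.0%, and if mates of a pair were counted as 2, counting errors are too small.

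Each symbol was represented by its most abundant transcript on average (10500 of 19475 symbols had more than 1). Testing used limma (version 3.58.1, R version 4.3.3) with a variance trend and no replicate block, on log2(FPKM + 1) of the genes that reached 1 FPKM in 2 or more libraries, and p-values were adjusted by Benjamini-Hochberg over 11964 genes. Fold changes on this scale understate the change of low genes. The fit was tested on simulated data.

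The 10 genes, the lists and the alternatives were chosen with earlier results of these data known. Named were the 10 genes, up to 3 called genes with the largest change per direction and list, and the 3 genes nearest to CD36 and to ANGPTL4. Any other gene, cell type markers among them where singled out, was looked up with its values known. The alternatives were a pseudocount of 0.1, no filter, a minimum of 5 for the mean FPKM, scaling by quantiles or to a common median, summed transcripts, no variance trend, no fold change minimum, a replicate block and each library left out.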

Additional observations from a re-analysis of the deposited data

How the results depend on the processing

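With 2 libraries a group, an exact permutation test of one gene cannot go below p = 0.333, so the calls need limma's pooling of spread over genes, and a fit without 1 library assumes that the lone one varies like the others. ANGPTL4, HILPDA and CD36 were called higher under each alternative that tested them. CD36 dropped out with a minimum of 5 for the mean FPKM, where 2 of the 10 genes were called higher. With that filter 8166 genes were tested in all, and 702 were called higher and 960 lower. Of the other lipid genes 64 were tested, and 7 were called higher and 5 lower. With no minimum size, 4477 genes passed as higher and 5212 as lower (37.4% and 43.6% of those tested). Among them were 8 and 1 of the 10 genes and 43 and 30 of the 94 other lipid genes tested. DGAT2 turned to -0.18 with quantile normalization, and the cause was not tested. That scaling also took ACSL5 (0.68), ACSL3 (-0.87), ETFA (-0.70) and ACOX2 (0.49) under the size needed for a call. Scaling to a common median also ended the calls of ACSL3 and ETFA, which fell just short of that size, and either scaling left 4 of the other lipid genes called lower.

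Leaving out 1 library gave 1289 to 1325 genes called higher and 1053 to 1234 called lower, 3 and 0 of the 10 genes, and 11 higher and 4 to 7 lower of the other lipid genes. Same-numbered libraries share only a number (correlation of their deviations 0.0927), and with the replicate block 1285 genes were called higher and 1131 lower, as without it.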
